A study of Rattus norvegicus with 9 samples.

Results

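The miRNAs described here are those of rat serum that are tied to cardiac fibroblasts and fibrosis, namely miR-21, miR-29a, miR-29b, miR-29c, miR-199a, miR-214 and miR-34a. They were taken by name, with any arm or locus suffix, and 8 of the 276 miRNAs of the table matched. The PAB group held 6 male Sprague-Dawley (SD) rats with a band around the pulmonary artery, and the sham group held 3 male SD rats with a sham operation. All were wild type, were operated on at an age of 4 weeks, and gave serum 4 weeks after surgery, 1 small RNA library per rat. The band, a plastic ring of fixed size, loads the right ventricle (RV) by pressure and does not act on the lung vessels themselves, so it models RV overload and not lung disease. Serum collects small RNA from blood cells and from every organ, so a serum value cannot be assigned to the heart, and release by fewer cells cannot be told apart from less release per cell.

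A miRNA guides the Argonaute protein to messenger RNAs that pair with its seed, bases 2 to 8 from the 5′ end, and thereby lowers their translation and stability. In the heart, miR-21 is abundant in fibroblasts, where it has been tied in mice to growth signalling and scar formation. The miR-29 family represses collagens, elastin and other matrix genes, and its loss goes with more matrix. In mice, miR-199a and miR-214 come from a shared transcript that runs opposite to the gene Dnm3 and is active in mesenchymal cells. miR-34a is induced by the tumour suppressor p53, represses Sirt1 and Bcl2, and is linked to ageing and injury of the heart.

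The mature sequences, from RefSeq on the rat build GRCr8, are shown with the seed in capitals, because the seed sets which members can share targets and the rest sets which can share reads. All 8 members matched a RefSeq entry by name.
rno-miR-34a-5p: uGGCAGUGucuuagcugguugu
rno-miR-21-5p: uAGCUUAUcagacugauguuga
rno-miR-29a-3p: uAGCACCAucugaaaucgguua
rno-miR-29b-3p: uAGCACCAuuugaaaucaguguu
rno-miR-29c-5p: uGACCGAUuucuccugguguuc
rno-miR-199a-3p: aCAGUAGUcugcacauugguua
rno-miR-199a-5p: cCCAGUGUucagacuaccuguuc
rno-miR-214-3p: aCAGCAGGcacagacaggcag

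Only miR-29a-3p and miR-29b-3p had a seed in common among the 8, and they were identical at 18 of 22 positions, with the differences C10U, G18A, U21G and A22U counted from the 5′ end of miR-29a-3p. The only row of miR-29c was its 5p arm, whose seed is another. Its 3p arm, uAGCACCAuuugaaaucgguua, is shown because it carries the family's seed and differs from miR-29a-3p only by C10U, and it was not analysed here. The rule by which the authors assigned reads that fit several miR-29 members is not given in the sources used here, so the split among them is uncertain. Outside the 8 members, only miR-449a-5p (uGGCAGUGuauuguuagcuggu) had a seed of theirs, that of miR-34a-5p, among the 196 miRNAs of the table with a RefSeq sequence.

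On GRCr8 the members lie at few loci. miR-199a-3p (chr13:77116294-77116315) and miR-199a-5p (chr13:77116255-77116277) are the arms of Mir199a2 on the plus strand, 5329 bases before Mir214, which gives miR-214-3p (chr13:77121713-77121733). Both lie within the span of Dnm3, a gene of the dynamin family. miR-29a-3p (chr4:60617968-60617989) lies on the minus strand, with 291 bases between its gene and Mir29b1, and miR-29b-3p is encoded both there (chr4:60618342-60618364) and in Mir29b2 (chr13:109098882-109098904). Mir29b2 and Mir29c, the source of miR-29c-5p (chr13:109099374-109099395), are 447 bases apart in the span of a long noncoding RNA. miR-34a-5p (chr5:165815971-165815992) lies in the span of another long noncoding RNA, and miR-21-5p at chr10:71902653-71902674 on the minus strand.

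The libraries held 19477 to 64455 miRNA reads in the PAB group and 56231 to 65313 in the sham group. The authors also give RPM, reads scaled to a library total that is not in the table, and 1 read was worth 0.0520 to 0.0792 RPM. Sham libraries 1 and 2 stood apart from the rest, with 173 and 217 miRNAs detected (at least 1 read), against 81 to 131 in the PAB group and 129 in sham library 3. Values without both of them, a comparison added after the data were seen, are given below where the direction differs. The lone sham library is then assumed in edgeR to vary like the others, and the exact test over 7 choices cannot give a p below 0.143.

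The 8 members had 3587 reads in all, and miR-34a-5p and miR-21-5p held 3534 of them, or 98.5%. The other 6 members had 53 reads together. Of the 72 values of a member in a library, 30 were 0, 30 were 1 to 5 reads, 5 were 6 to 99 reads and 7 were at least 100 reads, all of them of miR-34a-5p or miR-21-5p. By mean share of the miRNA reads of a library, miR-34a-5p ranked 37 and miR-21-5p 65 among the 276 miRNAs, and the others ranked 137 to 226. The members took 0.0226% to 2.01% (median 0.0680%) of the miRNA reads in the PAB group and 0.945%, 2.92% and 0.0373% in sham libraries 1 to 3.

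**Figure D1:**
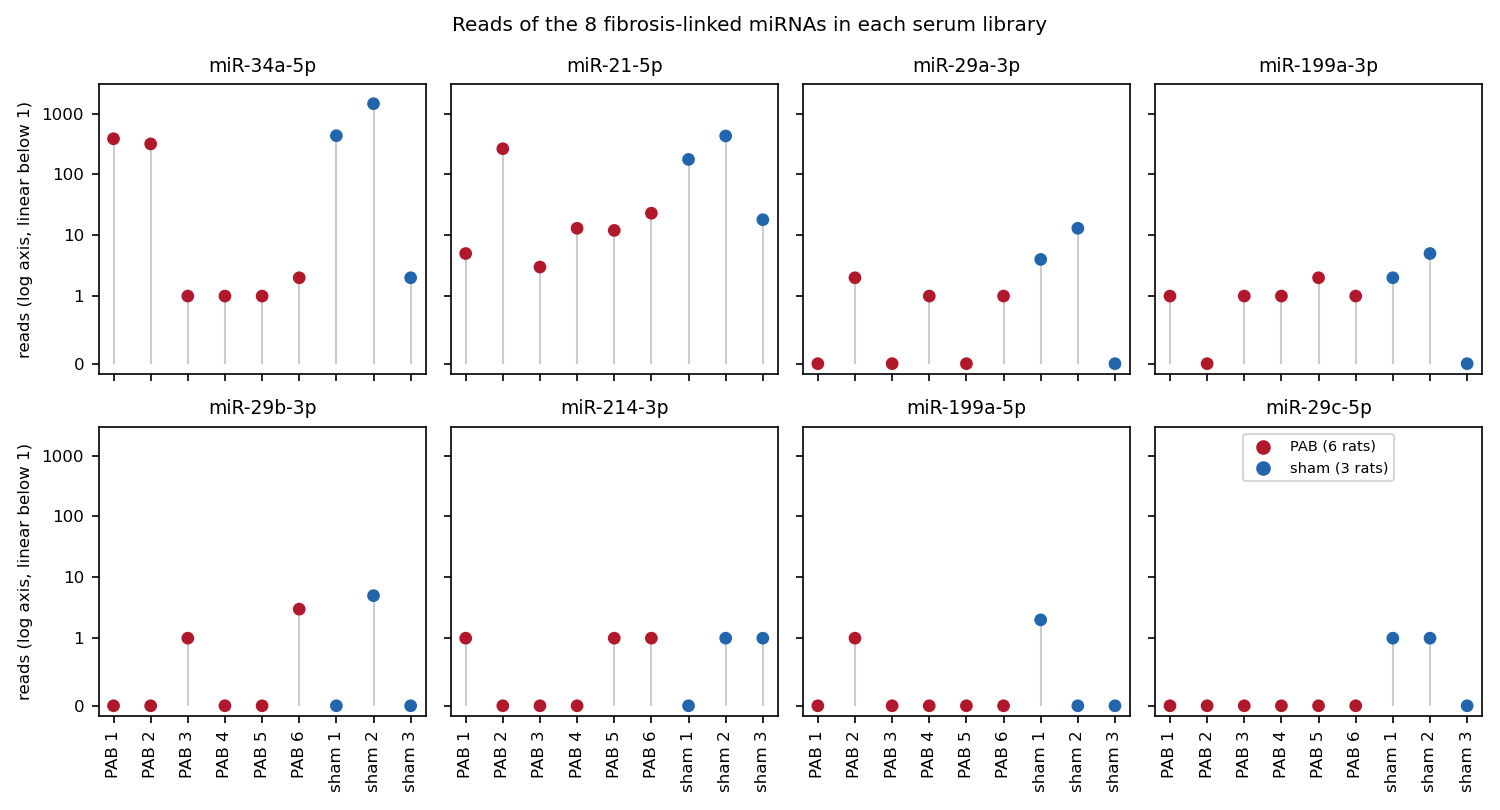
Reads of each of the 8 miRNAs (y axis, logarithmic above 1 and linear below) in the 6 PAB libraries (red) and the 3 sham libraries (blue), 1 point per rat. miR-34a-5p was either at least 317 or at most 2 reads, miR-21-5p was between 3 and 428 reads, and no other member exceeded 13 reads.

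No member passed the test between the PAB and sham groups. With edgeR's quasi-likelihood test on TMM-normalized reads, over the 162 miRNAs above 0 in at least 3 libraries, 0 of the 6 members tested were higher and 0 were lower at an adjusted p ≤ 0.05 (Benjamini-Hochberg over the 162) and |log2FC| ≥ 1, where log2FC is PAB against sham. Over all 162, 0 miRNAs (0%) were higher and 2 (1.23%) were lower. The adjusted p of the members was 0.6005 to 0.982. At an unadjusted p under 0.05 edgeR counted 0 of the 6, against 24 of the 162 (14.8%). DESeq2 called 0 of the 6, against 5.56% higher and 2.47% lower over all 162, and limma-voom called 0 of the 6 and 0 of the 162. Standard errors were 1.11 to 2.42 on the log2 scale and exceeded the size of the log2FC in 5 of the 6, so a difference of a few fold was not detectable with these libraries.

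miR-34a-5p was present in every library at either a high level or nearly none. PAB libraries 1 to 6 held 385, 317, 1, 1, 1 and 2 of its reads, which is 20.001, 20.3, 0.0650, 0.0650, 0.0520 and 0.156 RPM. Sham libraries 1 to 3 held 432, 1451 and 2, which is 34.2, 86.7 and 0.118 RPM. Both groups thus held libraries of both kinds, 2 of 6 high in the PAB group and 2 of 3 high in the sham group, and they overlapped. The 4 high libraries held 2585 of its 2592 reads, and the lowest of them was 158.5-fold above the highest of the other 5 in reads, 128-fold in RPM and 73.4-fold as a share of the miRNA reads.

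miR-34a-5p averaged 6.77 ± 10.4 RPM across PAB rats (SD, n = 6), against 40.3 ± 43.6 RPM across sham rats (SD, n = 3). On the log2(RPM + 0.1) scale the difference, PAB minus sham, was −3.31 (exact two-sided permutation test over the 84 choices of 3 of 9 libraries, p = 0.190), with SDs of 3.53 and 4.65 within the groups. The log2FC from edgeR was 0.19 (standard error 2.42, adjusted p = 0.982), of the opposite sign. TMM, which sets a scaling factor from most miRNAs of a library, was 1.80 and 2.17 in sham libraries 1 and 2 and 0.614 to 1.15 in the other 7. Leaving out 1 sham library moved the log2 difference in RPM either way. It was −2.32 without sham library 1 and −1.65 without sham library 2 (exact permutation test, p = 0.536 for each), and −5.97 without sham library 3 (p = 0.0357, the smallest that the exact test over 28 choices allows). With sham libraries 1 and 2 both left out it was 1.997 (exact permutation test, p = 0.857), and the log2FC from edgeR was 6.44 (adjusted p = 0.949).

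As a share of the miRNA reads, miR-34a-5p made up 1.98% (95% Wilson interval 1.79% to 2.18%) in PAB library 1 and 2.23% (2.12% to 2.34%) in sham library 2, against 0.00165% (0.000292% to 0.00936%) in PAB library 5. These intervals cover counting error only, since PCR reads without molecular identifiers are not independent molecules. PAB library 1 had the fewest miRNA reads, 19477, and sham library 3, with 2 reads of miR-34a-5p, had 56231. The part of depth in the pattern was not tested. miR-449a-5p, which carries the same seed, gave a single read in PAB libraries 1 and 3 and 2 reads in sham libraries 1 and 2, and its log2FC was −0.02 (edgeR, adjusted p = 0.983). miR-34b-3p, from a relative of the miR-34a gene and chosen after its values were seen, had 0 reads in all 6 PAB libraries, against 296 reads in sham library 3, where miR-34a-5p had 2, and 1 read in sham library 2.

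miR-21-5p was also present in every library, with more values in between. PAB libraries 1 to 6 held 5, 264, 3, 13, 12 and 23 of its reads, which is 0.260, 16.9, 0.194, 0.849, 0.626 and 1.79 RPM. Sham libraries 1 to 3 held 176, 428 and 18, which is 13.9, 25.6 and 1.06 RPM. PAB library 2 stood with sham libraries 1 and 2, these 3 held 868 of the 942 reads (92.1%), and sham library 3 lay below PAB library 6, so that the groups overlapped.

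miR-21-5p averaged 3.43 ± 6.61 RPM across PAB rats (SD, n = 6), against 13.5 ± 12.3 RPM across sham rats (SD, n = 3). The difference on the log2(RPM + 0.1) scale was −2.70 (exact two-sided permutation test, p = 0.131), and the log2FC from edgeR was −0.42 (standard error 2.21, adjusted p = 0.981). PAB library 2, the highest PAB library, moved both values. Without it the difference in RPM was −3.47 (exact permutation test over 56 choices, p = 0.0357, where 0.0179 is the smallest possible), and the log2FC was −2.35 (adjusted p = 0.598 from edgeR). The difference in RPM was −1.81 without sham library 2 (exact permutation test, p = 0.393), −4.04 without sham library 3 (p = 0.0714) and −0.01 with sham libraries 1 and 2 both left out (p = 1), although the mean of 3.43 RPM across PAB rats was then above the 1.06 RPM of sham library 3. Without sham library 2 the log2FC was 0.34, without PAB library 6 it was 0.18, and with sham libraries 1 and 2 both left out it was 1.26 (adjusted p = 0.996, 0.977 and 0.949 from edgeR).

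**Figure D2:**
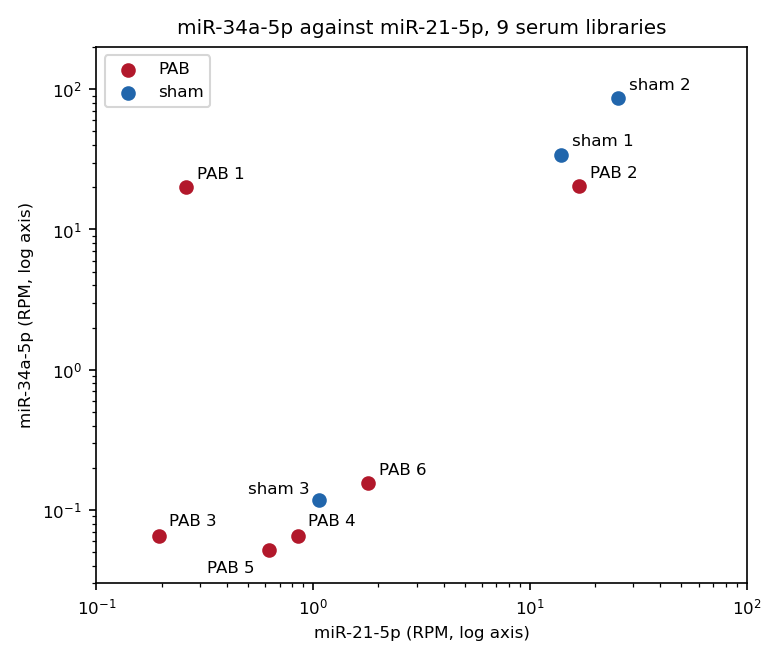
RPM of miR-34a-5p (y, log axis) against RPM of miR-21-5p (x, log axis) in the 6 PAB (red) and 3 sham (blue) libraries. PAB 2, sham 1 and sham 2 were high in both, PAB 1 was high only in miR-34a-5p (20.001 RPM, against 0.260 RPM of miR-21-5p), and the other 5 libraries were at most 0.156 RPM of miR-34a-5p.

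Set against each other within a library, which needs no scaling, miR-34a-5p had 77 reads per read of miR-21-5p in PAB library 1, 1.20 in PAB library 2 and 0.0769 to 0.333 in the other 4. In sham libraries 1 to 3 it had 2.45, 3.39 and 0.111. The range of the sham ratios lay inside that of the PAB ratios, and PAB library 1 was the highest of the 9.

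The miR-29 family was nearly absent from the serum libraries. Of miR-29a-3p, a repressor of matrix genes, PAB libraries 1 to 6 held 0, 2, 0, 1, 0 and 1 reads, against 4, 13 and 0 for sham libraries 1 to 3. It averaged 0.0452 ± 0.0538 RPM across PAB rats (SD, n = 6), against 0.364 ± 0.390 RPM across sham rats (SD, n = 3). Sham libraries 1 and 2 were above every PAB library, and sham library 3, with no read, lay at the bottom beside 3 PAB libraries. The difference on the log2(RPM + 0.1) scale was −1.27 (exact permutation test, p = 0.131), with −0.57 without sham library 2 (exact permutation test, p = 0.464) and −2.14 without sham library 3 (exact permutation test, p = 0.0357, the smallest possible). With 1 in place of 0.1 as the added constant it was −0.35 (exact permutation test, p = 0.0833). The log2FC from edgeR was −1.26 (standard error 1.11, adjusted p = 0.6005), which was the lowest adjusted p of the 6 members, and −0.14 without sham library 2. Over the pooled reads of the groups its RPM ratio, PAB over sham, was 0.112 (95% exact interval 0.0273 to 0.342, counting error only), beside a ratio of 0.637 for the pooled reads of all miRNAs. With sham libraries 1 and 2 both left out its log2FC was 2.56 (adjusted p = 0.949 from edgeR) and its difference in RPM 0.46 (exact permutation test, p = 0.857).

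miR-29b-3p, of the same seed, was found with 1 read in PAB library 3, with 3 reads in PAB library 6, and with 5 reads in sham library 2. The other 6 libraries, 4 of PAB and 2 of sham, had 0 reads. Its pooled ratio was 0.379 (0.0753 to 1.76) and its log2FC 0.49 (standard error 1.36, adjusted p = 0.931 from edgeR). On the log2(RPM + 0.1) scale the difference was −0.26 (exact permutation test, p = 0.821), of the opposite sign, and 0.41 both without sham library 2 (p = 0.786) and without sham libraries 1 and 2 (exact permutation test, p = 1). It could not be tested with edgeR without PAB library 3, PAB library 6 or sham library 2, since too few libraries then held a read.

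miR-29c-5p, the passenger arm of miR-29c, had 0 reads in all 6 PAB libraries and 1, 1 and 0 reads in sham libraries 1 to 3. A count of 0 over the PAB group allows up to 3 reads, or 0.0307 RPM, and the 2 reads of the sham group are also under 3 reads, so no ratio is given. By the number of libraries with a read, 0 of 6 in the PAB group against 2 of 3 in the sham group, Fisher's exact two-sided test gave p = 0.0833. For each of the other 7 members the same exact test gave p = 1, so that 0 of 8 were under 0.05, against 12 of the 276 miRNAs (4.35%). The test could not go under 0.05 for miR-34a-5p and miR-21-5p, which had reads in all 9 libraries. Nor could it for miR-29c-5p, miR-199a-5p and miR-199a-3p, with reads in 2, 2 and 7 libraries. The count of 0 is therefore no result about the members.

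The miR-199a and miR-214 locus gave at most 5 reads of a member in a library. Of miR-199a-3p, which in rodents has been tied to division of heart muscle cells, PAB libraries 1 to 6 held 1, 0, 1, 1, 2 and 1 reads, against 2, 5 and 0 for sham libraries 1 to 3. It was present in 5 of 6 PAB libraries and 2 of 3 sham libraries. It averaged 0.0607 ± 0.0346 RPM across PAB rats (SD, n = 6), against 0.152 ± 0.150 RPM across sham rats (SD, n = 3). The pooled ratio was 0.407 (0.113 to 1.41), the log2(RPM + 0.1) difference −0.47 (exact permutation test, p = 0.345) and the log2FC 0.58 (standard error 1.12, adjusted p = 0.881 from edgeR). The sign thus differed between RPM and TMM, and 1 sham library set the size of the difference in RPM. It was −0.03 without sham library 2 (exact permutation test, p = 0.929), −1.03 without sham library 3 (p = 0.0357, the smallest possible) and 0.65 with sham libraries 1 and 2 both left out (p = 0.286).

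The other arm, miR-199a-5p, which represses caveolin-1 in human lung fibroblasts, had 1 read in PAB library 2 and 2 reads in sham library 1. Over the 9 libraries there were 13 reads of miR-199a-3p and 3 of miR-199a-5p, and sham library 1 held 2 reads of each. miR-214-3p, which in mice represses the sodium-calcium exchanger of heart muscle, gave a single read in PAB libraries 1, 5 and 6, and likewise in sham libraries 2 and 3. Its log2FC was 0.69 (standard error 1.27, adjusted p = 0.871 from edgeR) and its log2(RPM + 0.1) difference −0.11 (exact permutation test, p = 0.762). With sham libraries 1 and 2 both left out the log2FC was −0.71 (adjusted p = 0.949 from edgeR), and at 5 reads in all these fitted values are no measure of size. miR-199a-3p and miR-214-3p, neighbours on chromosome 13, were both present in PAB libraries 1, 5 and 6 and sham library 2. PAB library 2 held neither. With reads in 7 and 5 of the 9 libraries, some overlap is forced, and it was not tested.

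**Figure D3:**
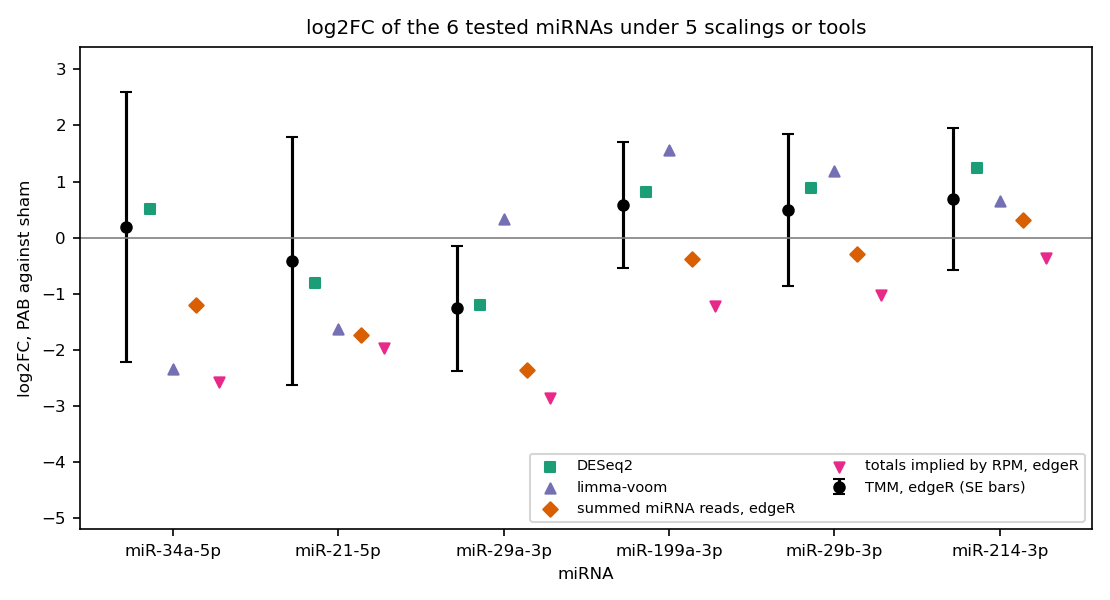
log2FC of the 6 tested members, PAB against sham (y axis), under 5 settings, edgeR with TMM (black, bars are ± 1 standard error), DESeq2, limma-voom, and edgeR with either library total in place of TMM. With totals implied by RPM all 6 lay below 0, from −0.36 for miR-214-3p to −2.86 for miR-29a-3p, and with TMM 4 of the 6 lay above 0.

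The direction of most members turned with the scaling. With TMM 4 of the 6 had a log2FC above 0 (median 0.34, against −0.15 over all 162 miRNAs, of which 46.9% were above 0). The median of all 162 was −0.86 where the summed miRNA reads stood as library size and −1.54 under totals implied by RPM, a shift of the whole table. In mean RPM all 8 members, the 6 tested among them, were lower in the PAB group, as were 117 of the 162 tested miRNAs (72.2%). This rested on sham libraries 1 and 2. Against sham library 3 alone, 6 of the 8 members had a higher mean RPM in the PAB group, 4 of these 6 with no read in sham library 3, miR-214-3p had a lower one and miR-29c-5p was at 0 in both, beside 90 of the 162 tested miRNAs (55.6%) with a higher one. Taken relative to the median of all tested miRNAs, miR-29a-3p was at −1.11, −1.50 and −1.32 under TMM, summed reads and implied totals, and miR-21-5p was at −0.27, −0.88 and −0.44. miR-34a-5p was at 0.34, −0.35 and −1.04. miR-199a-3p, miR-29b-3p and miR-214-3p were above the median under all 3 scalings, by 0.32 to 1.18. They had only 13, 9 and 5 reads, and the standard errors of their log2FC, 1.12 to 1.49, exceeded each of these distances. The 3 scalings use the same reads, so they are not 3 separate results. With implied totals edgeR called 0 members, against 23 miRNAs (14.2%) lower, and the lowest adjusted p of a member was 0.114, for miR-29a-3p (unadjusted p = 0.0324). It was the 1 member under an unadjusted p of 0.05 there, against 33.3% of all 162 in either direction and 30.9% lower.

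**Figure D4:**
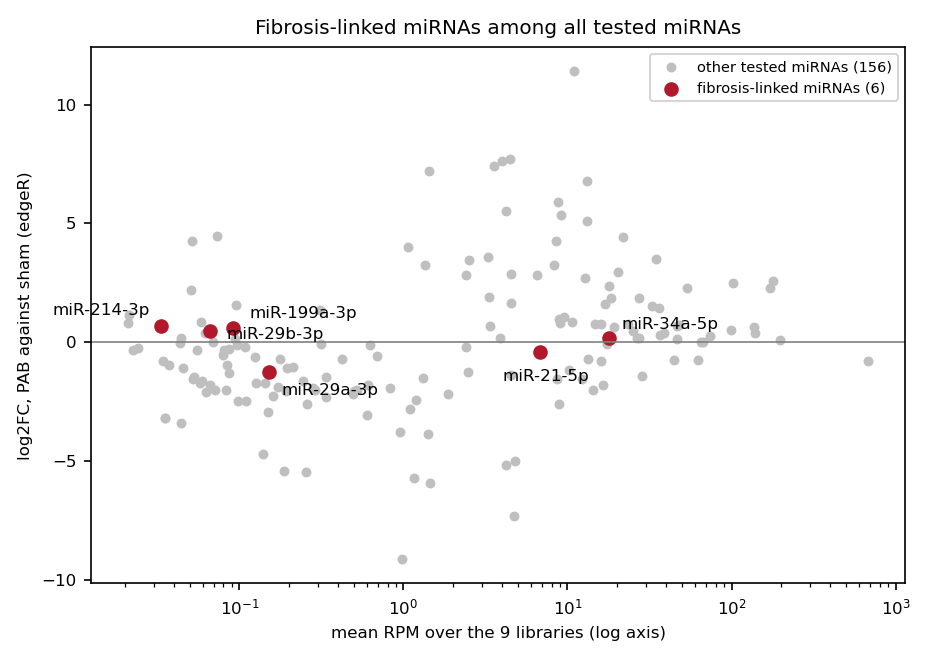
log2FC from edgeR (y axis) against mean RPM (x, log axis) for the 162 tested miRNAs, with the 6 members in red. miR-34a-5p and miR-21-5p lay at 17.96 and 6.80 mean RPM near a log2FC of 0, and the other 4 at 0.0334 to 0.152 mean RPM, between −1.26 and 0.69.

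By the exact permutation test on log2(RPM + 0.1), 0 of the 6 tested members were under an unadjusted p of 0.05 (p = 0.131 to 0.821), against 40 of the 162 miRNAs (24.7%). The 2 groups were without overlap in 0 of the 8 members, and so in 0 of the 6 tested, against 16 of the 162 (9.88%). At that share 0 of 6 is no result about the members. The number of members detected averaged 4.33 ± 0.816 of 8 across PAB rats (SD, n = 6), against 5.33 ± 2.08 across sham rats (SD, n = 3; exact permutation test, p = 0.452). Every PAB library held 4 members, apart from PAB library 6 with 6, and sham libraries 1 to 3 held 6, 7 and 3. Against sham library 3 alone the difference, PAB minus sham, was 1.33 (exact permutation test, p = 0.286) in place of −1. As a mean share, 54.2% of the members and 37.5% of all 276 miRNAs were detected in a PAB library, and 66.7% and 62.7% in a sham library. At the smallest total of 19477 reads the expected number of members was 3.19 ± 1.04 across PAB rats (SD, n = 6), against 3.75 ± 1.69 across sham rats (SD, n = 3; exact permutation test, p = 0.548).

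**Figure D5:**
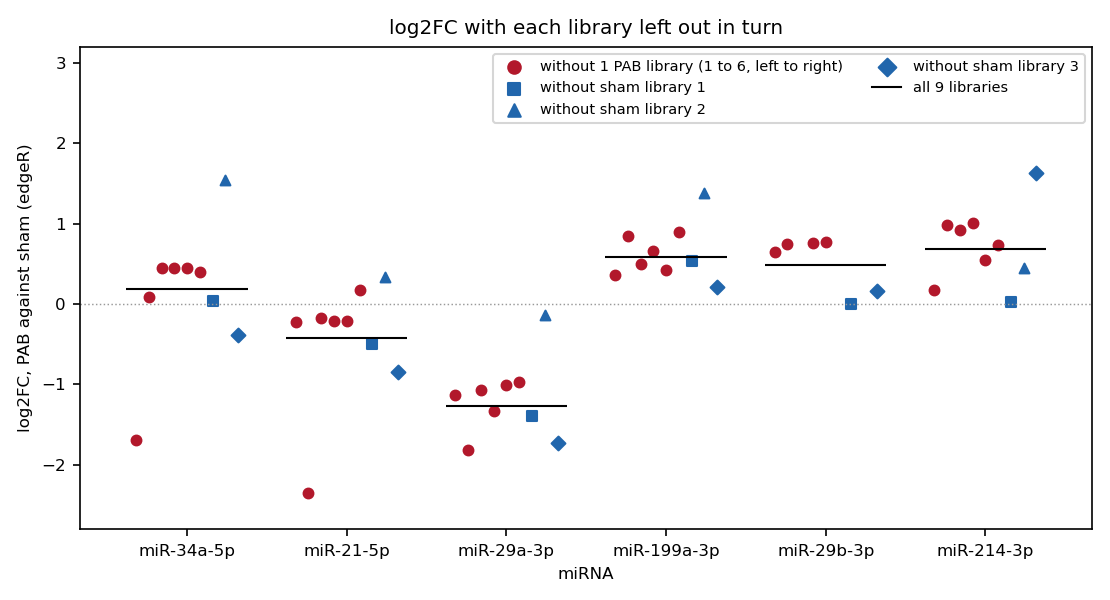
log2FC from edgeR (y axis) of the 6 tested members with each library left out in turn, PAB libraries as red circles and sham libraries as blue squares, triangles and diamonds, with the value of all 9 libraries as a line. miR-34a-5p ranged from −1.69 without PAB library 1 to 1.54 without sham library 2, and miR-21-5p from −2.35 without PAB library 2 to 0.34 without sham library 2.

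The miRNAs whose levels followed the members most closely were sought among the 87 others above 0 in at least 6 libraries, by Spearman's rho of log2(RPM + 0.1) over the 9 libraries. miR-21-5p was most like miR-149-5p (0.93), miR-27a-3p (0.90) and let-7e-5p (0.86). Of miR-149-5p, PAB libraries 1 to 6 held 15, 623, 6, 9, 35 and 48 reads, against 136, 327 and 55 for sham libraries 1 to 3, so that PAB library 2 and sham libraries 1 and 2 were again the 3 highest. miR-34a-5p was most like let-7e-5p and miR-146b-5p (0.90 each) and a miRNA predicted by the authors (0.89), none of which shared its jump in PAB library 1, where let-7e-5p and miR-146b-5p had 1 read each. In the 5 low libraries miR-34a-5p had 1 or 2 reads, so its ranks among them rest largely on the library total. miR-29a-3p was most like miR-27a-3p (0.92), another predicted miRNA (0.91) and miR-15b-5p (0.91), ranks that rest on 5 libraries with a read of miR-29a-3p. The points share their libraries and totals, and the values are a description.

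Of the other miRNAs with a known part in fibrosis of the heart or other organs, such as miR-133a, the miR-30 5p arms, miR-24 and miR-26a, 22 were in the table and 16 could be tested. Of these, 2 also stand among the markers given next, miR-24-3p for platelets and miR-133a-3p for muscle. None was called in either direction by edgeR, with 5 above and 11 below 0, a median log2FC of −0.68 and adjusted p of 0.0710 to 0.982. The corresponding median over all 162 miRNAs was −0.15.

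Markers of cells that feed serum varied widely from library to library. The summed RPM of 5 red blood cell miRNAs was 74.8 to 215 in the PAB group and 93.5 to 119 in the sham group. This sum hides opposite values of its members. PAB library 2 held 1474 reads of miR-451-5p and 1 of miR-486, and PAB library 5 held 3 and 823. The summed RPM of 5 platelet miRNAs was 114 to 1320 in the PAB group and 994 to 2044 in the sham group. In every library most reads of this sum were of miR-191a-5p, so the sum chiefly follows that miRNA. Of the others, miR-223-3p had 683 reads in PAB library 5 and at most 1 elsewhere. miR-126a-3p had 12 to 425 reads in the PAB group and 227 to 870 in the sham group. That of 3 white blood cell miRNAs was 15.8 to 315 in the PAB group and 65.5 to 251 in the sham group, and that of 4 striated muscle miRNAs was 2.75 to 63.7 in the PAB group and 5.66 to 95.03 in the sham group. The liver miRNA miR-122-5p was at 0 to 106 RPM in the PAB group, with 0 reads in PAB libraries 4 and 5, and at 30.0 to 162 RPM in the sham group. In PAB library 1, where miR-34a-5p was high and miR-21-5p low, the platelet and muscle sums were the lowest of the 9 libraries, 114 and 2.75 RPM. Of the muscle miRNAs, miR-206-3p had 1 read there, against 536, 974 and 751 in PAB libraries 2 to 4. miR-1b and miR-133a-3p were not lowest there, with 41 and 9 reads, against 8 and 4 in PAB library 3. miRNA reads also made up the lowest share of the total implied by RPM in PAB library 1, 0.101%, which lowers the RPM of miRNAs as a whole. Whether the 2 sums were low beyond that was not tested. The part of blood, liver and muscle cells in the members' levels was not tested either, and edgeR called none of the markers. Among these, miR-486 was at a log2FC of 6.77 (edgeR, adjusted p = 0.211). The paper, with DESeq2 and RT-qPCR, reports it as raised in PAB.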

How the data were processed

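Small RNA of rat serum (6 PAB and 3 sham libraries, 1 per rat) was sequenced by the authors as single reads of 50 bases. Their methods name alignment to Rnor_6.0 with Bowtie 2.2.5 and comparison with miRBase and Rfam. The submitters' notes name Bowtie2 2.2.9, DESeq2 and the human build GRCh38.p13. How reads were counted, and whether strand was used, is not given in the sources used here. The deposited table holds, for each library, counts of reads per mature miRNA (not normalized) and RPM, which the authors scaled to a library total not in the table.

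Counts were tested with edgeR 4.0.16 (R 4.3.3, TMM, quasi-likelihood test, Benjamini-Hochberg over the 162 miRNAs above 0 in at least 3 libraries). Standard errors are the size of log2FC over the square root of F. RPM was compared as log2(RPM + 0.1) by exact two-sided permutation tests. Such log2 differences understate changes of low miRNAs. Pooled ratios carry exact Clopper-Pearson intervals. DESeq2 1.42.0, limma-voom (limma 3.58.1), other scalings and filters, other pseudocounts, the replicate number as a block, and leaving out each library were alternatives. Other steps used scipy 1.17.1, numpy 2.4.6, matplotlib 3.10.9 and pandas 2.3.3 under Python 3.11.15. The procedure was tested on simulated counts with less spread between libraries than these data had. That test does not show how often a change would be found at the spread of these data. Members, lists and tests were chosen with earlier results of these data known. Every member is named, with the 3 miRNAs most like each of the 3 members with most reads. Sequences and positions come from RefSeq on GRCr8, a later build than that of the authors, and were matched by name.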

Additional observations from a re-analysis of the deposited data

Results flagged for a closer look

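A rat of the PAB group lay far from the other 5 in 4 of the values above, by Dixon's ratio against its 95% critical value for 6 samples. Chance gives about 1 such case in 20 groups of normally distributed values, and 10 groups were looked at. RPM here is skewed and most members had few reads, so that rate does not hold and such cases can be more common. For miR-199a-5p and the number of members the other 5 values were equal, and any different value stands out. miR-21-5p was at 16.9 RPM in PAB library 2, where the next highest PAB library had 1.79 RPM. miR-29b-3p was at 0.234 RPM in PAB library 6, against 0.065 RPM in the next, which is 3 reads against 1. miR-199a-5p was at 0.064 RPM in PAB library 2, which is 1 read, and at 0 in the other 5. PAB library 6 held 6 of the 8 members, and each of the other 5 PAB libraries held 4. The sham group, with 3 rats, is too small for this check.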

How the results depend on the processing

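No member was called in either direction under any of the 19 alternatives in which it could be tested, and most alternatives called no miRNA at all. Calls over all tested miRNAs came with DESeq2 (9 higher and 4 lower of 162), summed reads (6 lower of 162) and implied totals (23 lower of 162). They also came with no filter on low counts (1 higher and 10 lower of 276) and without sham library 3 (2 lower of 152). The sign of the log2FC turned in each of the 6 tested members. miR-34a-5p (0.19 with TMM) was −2.34 with limma-voom, −1.20 with summed reads, −2.57 with implied totals and −1.12 with at least 10 reads in 3 libraries. miR-199a-3p (0.58) was −0.38 with summed reads and −1.22 with implied totals, miR-29b-3p (0.49) −0.30 and −1.02, miR-214-3p (0.69) −0.36 with implied totals, and miR-29a-3p (−1.26) 0.32 with limma-voom. Leaving out 1 library gave −1.69 to 1.54 for miR-34a-5p, −2.35 to 0.34 for miR-21-5p, −1.82 to −0.14 for miR-29a-3p, 0.21 to 1.38 for miR-199a-3p, 0.03 to 1.64 for miR-214-3p and 0.0032 to 0.77 for miR-29b-3p. With sham libraries 1 and 2 both left out, an alternative added after the data were seen, miR-21-5p was at 1.26, miR-214-3p at −0.71 and miR-29a-3p at 2.56, and the log2(RPM + 0.1) difference turned to 1.997 for miR-34a-5p, 0.46 for miR-29a-3p, 0.65 for miR-199a-3p and 0.41 for miR-29b-3p. With 1 library left out that difference was −5.97 to −1.65 for miR-34a-5p, −4.04 to −1.81 for miR-21-5p, −2.14 to −0.57 for miR-29a-3p, −1.03 to −0.03 for miR-199a-3p, −0.59 to 0.41 for miR-29b-3p and −0.33 to 0.0055 for miR-214-3p. The cause of these turns was not tested.

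Libraries 1 to 3 of the groups share only a number. Their deviations correlated at −0.11, −0.33 and −0.07, and they come from different rats. With the replicate block 0 members were called, and 0 of all 136 miRNAs tested there. miR-199a-3p was then at −0.0043 and miR-21-5p at −1.70, against 0.20 for miR-21-5p in the same 6 libraries with no replicate block. The difference in the number of members detected (−1) was −1.50 at a minimum of 3 reads, −0.56 at the smallest total, −2.17 to −0.17 with 1 library left out, and 1.33 with sham libraries 1 and 2 both left out.

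DESeq2 gave no adjusted p for miR-214-3p and miR-29b-3p. Of the 8 members, 6 had 21 reads or fewer, where leaving out 1 library can move the value.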

Other observations

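The all-or-nothing pattern of miR-34a-5p was not alone in the table. Of the 162 tested miRNAs, 21 (12.96%) had at most 3 or at least 100 reads in every library and both kinds of library among the 9. Of these, 15 had at least 100 reads in 2 or more libraries and 9, miR-34a-5p among them, in 4 or more. The limits of 3 and 100 reads were chosen after the values of miR-34a-5p were seen.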
